A study of Mus musculus with 14 samples.

Results

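The Kruppel-like factor genes examined here were the 10 named members Klf1, Klf2, Klf3, Klf4, Klf5, Klf6, Klf7, Klf9, Klf10 and Klf13, among 21938 protein-coding mouse genes. A peak of histone H3 trimethylated at lysine 4 (H3K4me3) belonged to a gene when at least 1 base fell inside the gene body or no more than 1 kb from an annotated transcription start site (TSS) of that gene. A putative enhancer belonged to a gene when any base lay within 100 kb of the gene body. This gave 29 of 25357 H3K4me3 peaks and 65 of 32965 putative enhancers.

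The cells were immortalised mouse embryo fibroblasts (iMEF) with floxed Ash2l alleles and a Cre-ER recombinase. In every group, untreated cells included, exon 4 of endogenous Ash2l had been deleted, and the cells lived on FKBP-HA2-ASH2L, human ASH2L fused to FKBP12(F36V) and expressed from a lentivirus. ASH2L belongs to the core of every KMT2 methyltransferase complex acting on H3K4, and the compound dTAG ties the fusion protein to a ubiquitin ligase, so that it is degraded. The cells used for H3K4me3 ChIP-seq were of a single clone, NG3, established by limiting dilution after the deletion. ChIP-seq for H3K4me3 was made without dTAG and 30 min, 2 h, 4 h, 8 h and 16 h after its addition, with 2 replicates in each of these 6 groups, and 2 inputs were taken, from untreated cells and at 16 h.

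The 2 lists used here give positions only, the peaks as a union over all samples and the enhancers from control cells. In these lists no position can be traced to a time point or a replicate and no depth per library is given. Changes after dTAG were not analysed here, and no value below has a replicate error or a test. The width of a listed peak is therefore that of the union, and it is not the strength of the mark. As a check of the labelled cell type, TSS peaks were counted at marker genes, beside a share of 59.1% over all 21938 protein-coding genes. All 9 fibroblast markers had a TSS peak. This held for 1 of 6 erythroid, 2 of 4 endothelial, 2 of 5 epithelial and 0 of 3 pluripotency markers. The lists are short, and the endothelial and epithelial counts are not far from the share over all genes.

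Kruppel-like factors are transcription factors whose zinc fingers at the carboxyl end bind GC-rich boxes and the CACCC box. Klf1, Klf2, Klf4, Klf5, Klf6 and Klf7 are mostly known as activators that recruit acetyltransferases, Klf3 as a repressor that works through CtBP, and Klf9, Klf10 and Klf13 as factors that can recruit the Sin3 corepressor. Several are immediate-early genes, switched on within minutes by serum, stress or TGF-beta, and H3K4me3 typically flanks the start of such genes at CpG islands.

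At most of these promoters the mark lay on both sides of a short stretch that no peak covered. A separate upstream peak at most 500 bp from the widest peak was present at 7 of 10 members, Klf2, Klf4, Klf5, Klf6, Klf7, Klf9 and Klf13, against 25.8% of the 12966 protein-coding genes with a TSS peak. The gap between the peaks was 199 bp at Klf2, 183 bp at Klf4, 74 bp at Klf5, 357 bp at Klf6, 327 bp at Klf7, 124 bp at Klf9 and 245 bp at Klf13. The median of 199 bp compared with 146 bp over the 3350 genes with such a gap. In 6 of the 7 the gap ended before the TSS, between 2 bp upstream at Klf2 and 67 bp upstream at Klf5. The gap of Klf6 ran from 331 bp before to 25 bp after the main TSS and so contained it.

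The sequences of 6 of the gaps show what lies between the flanking peaks, and that of Klf5 is not printed. They were read from the reference genome GRCm38.p6 (mm10) and are written 5′ to 3′ in the direction of transcription. For Klf7 only the 250 bases nearest the TSS are given, and for Klf6 only the 250 bases just before the TSS. The Klf6 stretch thus leaves out the TSS and the gap bases after it, and a CCNCNCCC match across its end is not marked. Capitals mark CCNCNCCC and CACCC (boxes of Kruppel-like factors and Sp proteins), CCAAT (the box of NF-Y), and CTAAAAATA and TAAATTTA (sites of the MEF2 kind), on either strand and merged where they overlap. TAAATTTA was added after the Klf2 sequence had been read.
Klf2, chr8:72318833-72319031, plus strand: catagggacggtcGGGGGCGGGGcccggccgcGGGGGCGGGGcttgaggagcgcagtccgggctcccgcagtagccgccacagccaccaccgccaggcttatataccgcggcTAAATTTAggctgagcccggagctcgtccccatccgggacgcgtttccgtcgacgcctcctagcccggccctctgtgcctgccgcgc
Klf4, chr4:55532514-55532696, minus strand: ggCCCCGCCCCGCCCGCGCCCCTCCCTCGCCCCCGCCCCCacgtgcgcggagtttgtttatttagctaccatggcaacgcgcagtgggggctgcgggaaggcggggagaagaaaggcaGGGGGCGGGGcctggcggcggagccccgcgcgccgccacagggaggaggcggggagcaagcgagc
Klf6, chr13:5861232-5861481, plus strand: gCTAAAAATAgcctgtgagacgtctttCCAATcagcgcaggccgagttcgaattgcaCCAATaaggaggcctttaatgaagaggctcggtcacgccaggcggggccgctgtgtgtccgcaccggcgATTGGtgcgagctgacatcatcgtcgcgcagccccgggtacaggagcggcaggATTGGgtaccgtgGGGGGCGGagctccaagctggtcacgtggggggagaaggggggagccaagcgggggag
Klf7, chr1:64121514-64121763, minus strand: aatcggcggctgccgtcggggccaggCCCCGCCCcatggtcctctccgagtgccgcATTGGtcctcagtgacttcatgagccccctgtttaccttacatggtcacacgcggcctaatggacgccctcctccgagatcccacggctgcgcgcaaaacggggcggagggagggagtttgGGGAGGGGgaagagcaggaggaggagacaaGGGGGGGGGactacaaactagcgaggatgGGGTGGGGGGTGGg
Klf9, chr19:23141055-23141178, plus strand: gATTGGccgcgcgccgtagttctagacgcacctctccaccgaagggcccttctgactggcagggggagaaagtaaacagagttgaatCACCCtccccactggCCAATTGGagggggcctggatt
Klf13, chr7:63938980-63939224, minus strand: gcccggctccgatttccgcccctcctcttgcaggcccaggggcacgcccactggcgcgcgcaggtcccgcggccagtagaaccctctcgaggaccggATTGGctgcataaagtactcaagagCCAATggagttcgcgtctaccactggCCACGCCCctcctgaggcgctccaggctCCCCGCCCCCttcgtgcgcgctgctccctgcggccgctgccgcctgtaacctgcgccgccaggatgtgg

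The Klf2 and Klf4 gaps held runs of GC boxes. The gaps of Klf6, Klf9 and Klf13 carried CCAAT boxes in both orientations, and 4 of them stood in the printed Klf6 stretch. The printed Klf7 stretch held a single CCAAT box. The GC content of the gaps ranged from 59.7% at Klf9 to 76.0% at Klf4. The number of CpGs was lowest at Klf5, with 2 in the shortest gap, of 74 bp. It was highest at Klf6, with 30 in the whole gap, the longest, of 357 bp. The shorter gaps of Klf2 and Klf4 held 25 in 199 bp and 22 in 183 bp. The Klf7 gap lay in the first intron of a longer Klf7 transcript that starts further upstream, and the others lay outside the annotated gene except for the end of the Klf6 gap.

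The same motifs were then counted in the RefSeq promoter windows of the same build, 250 bases before to 50 after the gene start. Of the members, 8 matched an entry, all but Klf5 and Klf10. CACCC was found in 6 of 8 windows (Klf1, Klf2, Klf3, Klf7, Klf9 and Klf13) and in 57.5% of all 32817 windows. CCNCNCCC, which can overlap CACCC, was found in 6 of 8 (Klf2, Klf3, Klf4, Klf6, Klf7 and Klf13) and in 49.5%. CCAAT was found in 4 of 8 (Klf1, Klf6, Klf9 and Klf13) and in 37.4%. With 8 windows these counts are a description only.

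Rarer motifs were mostly missing from the windows. TATAAA was in 0 of 8 windows and 13.6% of all, the cyclic AMP element TGACGTCA in 0 of 8 and 1.79%, and CTAAAAATA in 0 of 8 and 0.518%. The CTAAAAATA in the Klf6 gap lay across the upstream edge of its window. TAAATTTA was in the Klf2 window and in 0.545% of all windows. MEF2 factors are known to activate Klf2 and Klf4 downstream of the kinases Map2k5 and Mapk7. TGANTCA, a loose form of the AP-1 site that accepts any middle base, was in the Klf9 window, as TGAATCA, and in 7.81% of all.

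**Figure D1:**
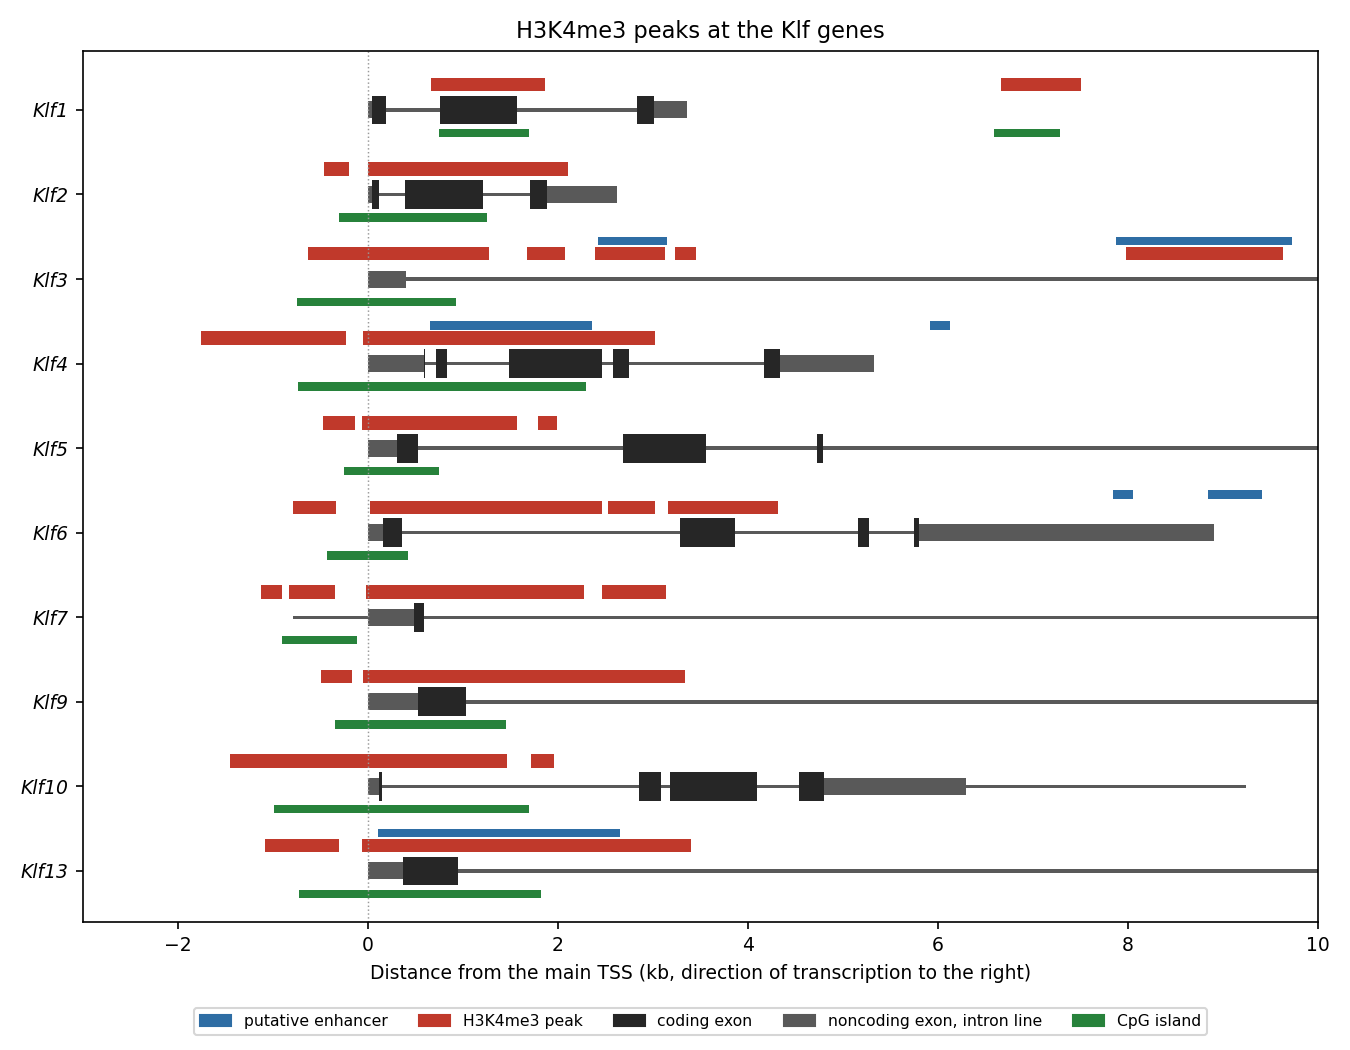
H3K4me3 peaks (red), putative enhancers (blue) and CpG islands (green) at the 10 Klf genes, against distance from the main TSS in kb. Peaks begin at or before the TSS of 8 genes and run into the gene, they stand on both sides of an uncovered stretch at 7, and the Klf1 peak begins 661 bp after the TSS. Within the plotted range, from 3 kb before to 10 kb after the TSS, the peak at the right of the Klf1 row lies beyond the gene and was not assigned to it.

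Each of the 10 members had a peak within 1 kb of a TSS, against 59.1% of protein-coding genes. The widest such peak had a median of 2372.5 bp over the members and 1255 bp over the 12966 genes with a TSS peak (quartiles 908 and 1710 bp). It reached 2000 bp at 7 of 10 members and at 16.0% of those genes. The order of the members, from the narrowest to the widest, was Klf1, Klf5, Klf3, Klf2, Klf7, Klf6, Klf10, Klf4, Klf9 and Klf13. Among the genes with a TSS peak these widths ranged from percentile 46.6 at Klf1 to percentile 98.5 at Klf13. Without replicate error, no neighbours in this order can be called different.

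**Figure D2:**
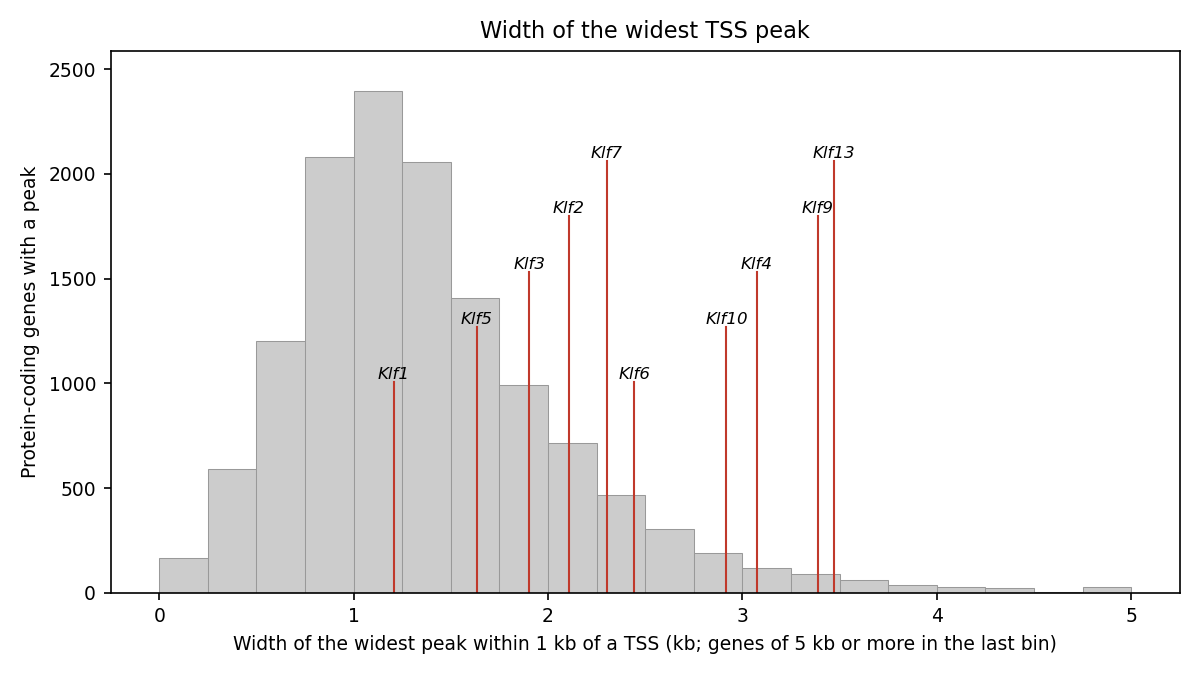
Width of the widest TSS peak in kb for all protein-coding genes with such a peak (grey bars, number of genes in each 250 bp bin) and for the Klf genes (red lines, whose heights only separate the names). Klf1 lies within the bulk at 1206 bp, and Klf4, Klf9 and Klf13 lie above 3 kb.

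Among the activators, Klf1, Klf2 and Klf4 form a related group that is best known from red blood cells, the vessel wall and stem cells. Klf1, the erythroid factor that activates adult beta-globin, was the exception among the members. Its single peak (chr8:84902589-84903794, 1206 bp) began 661 bp after the only annotated TSS, left exon 1 uncovered, and lay over exon 2, where its 814 coding bases made up 72.2% of the coding sequence. A CpG island filled 78.8% of that peak. The main TSS lay outside the widest peak at only Klf1 and Klf6, whereas it lay inside at 8 of 10 members and at 69.7% of genes with a TSS peak. Of the erythroid markers, Gata1, Tal1, Alas2, Hba-a1 and Hbb-bs had no TSS peak, while Epor had one of 894 bp.

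Klf2, which keeps endothelium and naive T cells quiescent, was the most completely covered. Its widest peak (chr8:72319032-72321138, 2107 bp) began 1 bp before the TSS and covered 80.3% of the gene and 100% of the coding sequence. The upstream peak of Klf2 was 265 bp wide. Klf4, one of the reprogramming factors and a regulator of epithelial barriers, had a peak of 3073 bp (chr4:55529441-55532513) over 88.1% of its coding sequence. Its upstream peak of 1532 bp was the widest upstream peak among the members. Peaks covered 56.8% of the Klf4 gene.

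Klf5, Klf6 and Klf7 differed in how far the mark reached. Klf5, a driver of proliferation in intestinal crypts and smooth muscle, had a peak of 1633 bp (chr14:99298625-99300257), an upstream peak of 332 bp and a further intronic peak of 203 bp, and 10.8% of the gene was covered. Klf6, an injury-induced growth regulator, had 4 peaks in a row, of 459, 2443, 494 and 1158 bp, from 790 bp before to 4318 bp after the main TSS. Together they covered 45.9% of the gene and 81.9% of the coding sequence. The last of them held another annotated Klf6 TSS and 577 coding bases.

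Klf7, best known from neuronal development, had 6 peaks, the most of any member. Its widest peak (chr1:64119212-64121513, 2302 bp) held no CpG island, whereas the separate upstream peak of 480 bp was 100% island and contained the start of the longer Klf7 transcript. The widest peak overlapped an island at 9 of 10 members, all but Klf7, close to the 86.0% of genes with a TSS peak. An island lay within 1 kb of a TSS at 10 of 10 members. That last count was not made over all genes. A further 2 peaks of 259 and 226 bp lay in an intron, from 32497 and 33404 bp after the main TSS, and the latter overlapped a putative enhancer. All peaks together covered 4.21% of this gene of 92836 bp.

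Klf3, a repressor that binds CtBP and is itself a target of Klf1 in erythroid cells, carried marks at 2 of its promoters. The first (chr5:64802758-64804660, 1903 bp) spread from 630 bp before to 1272 bp after the main TSS without a gap, and it also held TSSs of the genes C230096K16Rik and Gm20033. A CpG island made up 81.8% of it. The other promoter peak (chr5:64811364-64813025, 1662 bp) held 3 further Klf3 TSSs, had 0 island bases, and overlapped a listed enhancer of 1855 bp. Between them lay 3 peaks of 394, 736 and 224 bp. Peaks covered 14.5% of the gene but 0% of the coding sequence of its main transcript, which begins further downstream.

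Among the members that can recruit Sin3, Klf9 and Klf13 shared a layout that Klf10 did not have. Klf9, a target of glucocorticoid and thyroid hormone receptors, had a peak of 3387 bp (chr19:23141179-23144565) that began 47 bp before the TSS, with an upstream peak of 323 bp. Klf13, a regulator of the chemokine gene Ccl5 in T cells, had the widest peak of all members, 3470 bp (chr7:63935510-63938979), which began 64 bp before the TSS, with an upstream peak of 777 bp. Both genes have 2 exons and long first exons of 1034 and 949 bp, which were covered in full, and 69.0% and 66.9% of the coding sequence lay under peaks. Klf10, an early response gene of TGF-beta, had a peak of 2918 bp (chr15:38299245-38302162) that was almost centred on the TSS, with 1456 bp before and 1462 bp from the TSS on. Only 2.51% of the Klf10 coding sequence was covered.

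The widest peak thus lay almost entirely downstream of the TSS at most members. The share of its bases from the TSS on had a median of 98.5% over the members and 83.2% over genes with a TSS peak, and only Klf10 (50.1%) and Klf3 (66.9%) fell below 96.0%. This share leaves out separate upstream peaks, which 7 of 10 members had against 25.8% of genes with a TSS peak. First exons had a median of 468 bp against 228 bp, and coding sequence was covered to a median of 67.9% against 4.35%. The members were also shorter, with a median length of 12795 bp against 25821 bp, so shares of the gene are not comparable without its length.

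**Figure D3:**
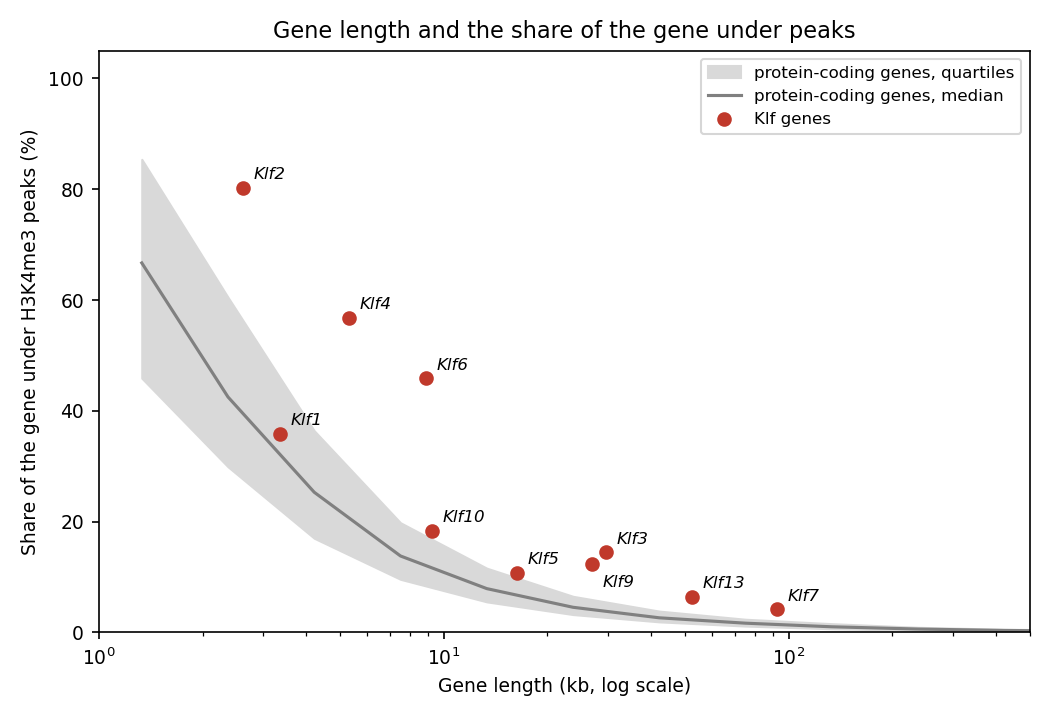
Share of each gene under H3K4me3 peaks in percent, against gene length in kb on a log scale, for the Klf genes (red points) and for all protein-coding genes with a TSS peak (grey line, median, and band, quartiles, by length). Klf1, Klf5 and Klf10 lie in or at the edge of the band, and the other 7 lie above it, Klf7 and Klf13 by the least on this axis.

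Peaks covered a median of 16.5% of the members' gene bodies and 4.16% over genes with a TSS peak. Relative to gene length, the widest peak measured 80.3% at Klf2, 57.7% at Klf4, 35.9% at Klf1, 31.6% at Klf10, 27.4% at Klf6, 12.6% at Klf9, 9.99% at Klf5, 6.6% at Klf13, 6.45% at Klf3 and 2.48% at Klf7, beside a median of 4.59% over genes with a TSS peak. The short genes therefore led this order, although Klf13 had the widest peak in bp. When each member was set only among genes of like length, all 10 were above the median covered share of their length class. Klf6 then stood highest, at percentile 97.6 of 1390 genes, followed by Klf3 at 97.2 and Klf9 at 95.2. Klf5, Klf10 and Klf1 stood lowest, at 71.1, 71.4 and 73.7.

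The other genes of the family and of the pathway were set beside the members. Over all protein-coding genes, 59.1% had a TSS peak, and the median widest peak of those genes was 1255 bp. Of the other 7 Klf genes, 5 had a TSS peak, with a median widest peak of 1477 bp, from 1015 bp at Klf11 to 2958 bp at Klf12, and Klf14 and Klf17 had none. Of the 9 Sp genes, which bind the same GC boxes, 6 had a peak, with a median of 806.5 bp, from 287 bp at Sp8 to 2736 bp at Sp3, and Sp5, Sp7 and Sp9 had none. Of those with a TSS peak, a separate upstream peak was seen at 2 of 5 Klf and 2 of 6 Sp genes, against 25.8% of all such genes.

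The counts of the pathway lists stand beside the same 59.1% of all protein-coding genes. The upstream kinases and MEF2 factors had a peak at 5 of 5 genes, from 1313 bp at Mapk7 to 3294 bp at Mef2d. The corepressor genes had one at 6 of 6, from 1096 bp at Hdac1 to 3542 bp at Ctbp2. The coactivator genes had one at 3 of 3, from 1998 bp at Kat2b to 2060 bp at Ep300. The genes of ubiquitin ligases that target Klf proteins had one at 2 of 2, with 695 bp at Wwp1 and 1763 bp at Fbxw7. The fibroblast markers had a median of 2598 bp, from 382 bp at Col3a1 to 3018 bp at Prrx1.

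Enhancers were unevenly spread over the members. All 10 had at least 1 within 100 kb, and their median was 6. Over all 21938 protein-coding genes, with or without a TSS peak, 75.5% had at least 1 and the median was 3. The enhancers of the genes with a TSS peak were not counted apart. Klf6 and Klf13 had 11 each, Klf3 and Klf10 had 9, Klf7 had 7, Klf4 and Klf9 had 5, Klf5 had 4, and Klf1 and Klf2 had 2. Of the 65, 12 lay inside a member, 24 upstream and 29 downstream. The nearest protein-coding TSS belonged to the member for 49, and no other coding TSS lay between enhancer and member TSS for 53. Neither count was made for the enhancers of other genes, so no share over all genes stands beside them.

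**Figure D4:**
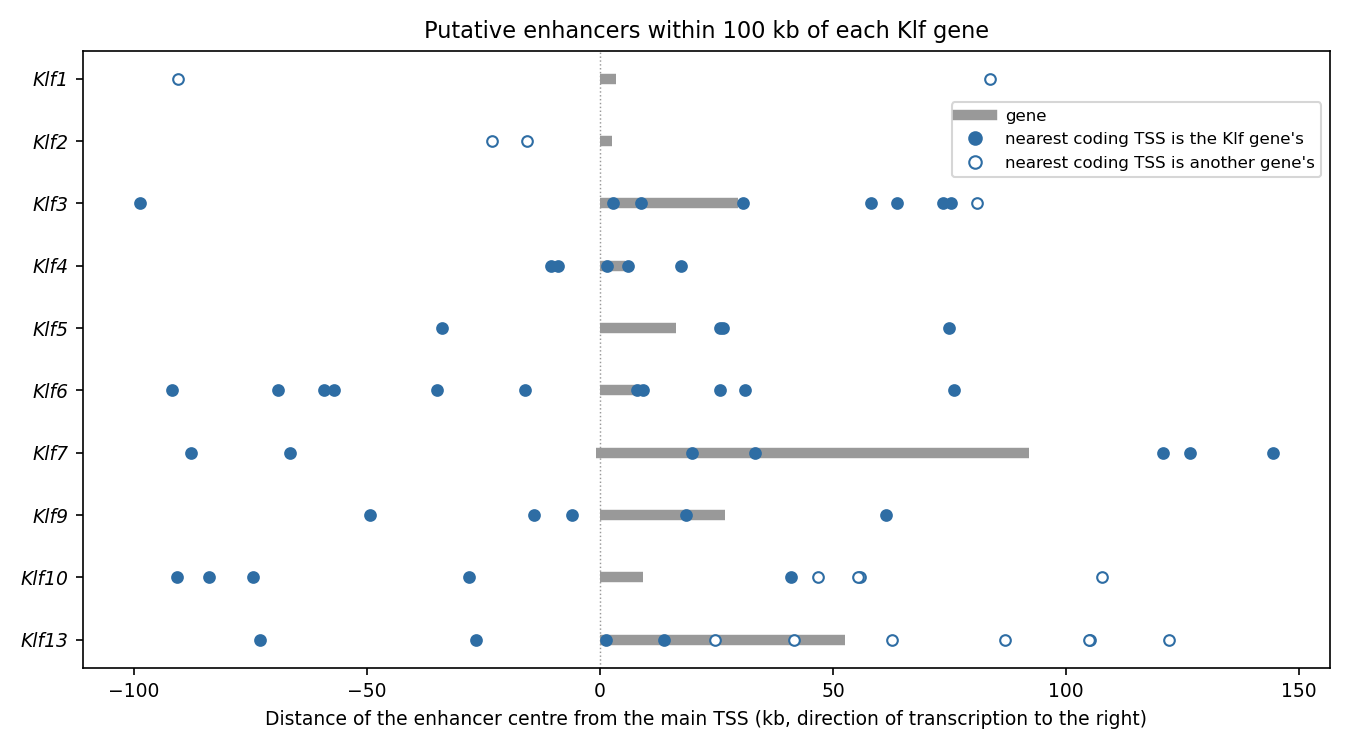
Putative enhancers within 100 kb of each Klf gene, by the distance of their centre from the main TSS in kb. Filled points have their nearest protein-coding TSS in the Klf gene and open points in another gene. All 11 points of Klf6 are filled, and none of the 4 points of Klf1 and Klf2 is.

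The neighbourhood differed between the members. Coding neighbours were counted by a TSS within 100 kb of the gene body. A gene that only reached into this window was not counted. The nearest gene was that of the nearest coding TSS. Klf6 had 0 coding neighbours and was the nearest gene for all 11 of its enhancers. For Klf4, Klf5, Klf7 and Klf9 this was also true of all their enhancers, and these genes too had 0 coding neighbours. Klf1, with 15 coding neighbours, was the nearest gene for 0 of 2 enhancers, which lay next to Nfix and Hook2. Both Klf2 enhancers, 15.8 and 23.2 kb upstream, were nearer to Gm10282. Klf3 was the nearest gene for 8 of its 9 enhancers, and Tlr1 for the last. Of the Klf10 enhancers, 4 were nearest to Odf1. Of the Klf13 enhancers, 3 were nearest to Otud7a and 4, including 2 in the Klf13 gene itself, to E030018B13Rik.

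Some regions carried both labels. Of the members' enhancers, 9 of 65 (13.8%) overlapped an H3K4me3 peak, against 7.52% of all enhancers. At Klf4 an enhancer of 1705 bp, and at Klf13 one of 2558 bp, the widest of the 65, lay within the body of the widest peak. Counted against GENCODE TSSs of the member itself, 4 enhancers came within 1 kb: these 2, the 1855 bp region at the downstream Klf3 promoter, and a region of 1696 bp inside Klf13 that overlapped no peak. The enhancer list was made to leave out 1 kb on either side of a TSS, and the TSS set used for that was not compared here.

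The members' enhancers were wider than enhancers at large, with medians of 532 and 405 bp, and 15 of 65 (23.1%) were at least 1 kb wide against 10.3% of all. The widest outside the member's own gene was a region of 2473 bp centred 5.9 kb upstream of Klf9. It overlapped H3K4me3 peaks and CpG islands, and other genes at this place were not checked. CACCC was in 75.4% of the members' enhancers and 64.1% of all, and CCNCNCCC in 58.5% and 38.4%. CCAAT was in 53.8% and 43.3%, and TGANTCA, with any middle base, in 41.5% and 30.2%. Wider regions hold more matches, and the part of width in these shares was not tested. Among the enhancers with TGANTCA were a region 8.99 kb upstream of Klf4 and one centred 104841 bp downstream of the Klf13 TSS. Their matches, TGAATCA and TGATTCA, have A or T as the middle base. The Klf13 region lay beyond the end of the gene. It was nearest to the TSS of Otud7a, with a TSS of 1 other coding gene between it and that of Klf13. The sequences of both enhancers follow on the plus strand of GRCm38.p6 with TGANTCA in capitals.
Enhancer upstream of Klf4, chr4:55541311-55541608: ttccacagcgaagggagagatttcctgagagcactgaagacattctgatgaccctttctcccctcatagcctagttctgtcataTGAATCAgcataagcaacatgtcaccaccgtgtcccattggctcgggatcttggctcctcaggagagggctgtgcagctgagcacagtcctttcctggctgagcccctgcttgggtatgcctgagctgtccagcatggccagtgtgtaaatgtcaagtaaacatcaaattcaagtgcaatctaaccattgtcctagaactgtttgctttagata
Enhancer downstream of Klf13, chr7:63833932-63834216: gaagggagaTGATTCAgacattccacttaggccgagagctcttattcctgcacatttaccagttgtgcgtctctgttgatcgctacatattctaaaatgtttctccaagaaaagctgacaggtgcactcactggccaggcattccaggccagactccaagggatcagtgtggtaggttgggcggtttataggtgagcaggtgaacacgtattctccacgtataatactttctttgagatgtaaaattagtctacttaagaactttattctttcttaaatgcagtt
Both lie outside any peak and hold no CACCC.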

How the data were processed

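H3K4me3 ChIP-seq was described for 12 libraries and 2 inputs. Per the methods of the study and the labels, the authors trimmed reads with Trim Galore, aligned them to mm10 with BWA, filtered with SAMtools, merged replicates and called narrow peaks with MACS2. Tool versions are not given in the sources used here. The deposited peak list (25431 regions, 25357 on chromosomes) is a union over samples. For the deposited enhancers, the authors required H3K4me1, H3K27ac and open chromatin by ATAC-seq in controls. The lists used here hold positions and 0 columns of values per sample. Depth per library cannot be read from them, and changes after dTAG were not analysed here.

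Peak starts were taken to count from 0, since no width was under 200, and enhancer starts from 1, since end minus start was most often 199. Positions are printed counting from 1. TSSs and gene bodies came from GENCODE M21. The main TSS is that of the principal transcript. CpG islands were called from the reference by scoring 17 per CpG and -1 per other base, with at least 200 bp, a GC content of 50% and a CpG ratio of 0.6. Tested on simulated data, interval functions differed from brute force in 0 of 1600 queries and 60 of 60 planted islands were found.

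The members, gene lists and motifs were chosen with earlier results of these data known, so shares are descriptions and no test was run. All members are named. From each family or pathway list, genes without a peak and the widest and narrowest are named. Of the marker lists, erythroid genes and the widest and narrowest fibroblast markers are named. A further erythroid marker that the list first held is not reported here. Protein sequences were not analysed here. Alternatives were other TSS sets and windows, peaks of at least 500 bp, merged regions, other enhancer windows, stricter islands and a wider motif window.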

Additional observations from a re-analysis of the deposited data

How the results depend on the processing

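No paired analysis was possible because neither list separates replicates, and no test was run. Restricting to peaks of at least 500 bp left 16 peaks in place of 29, and merging peaks within 1 kb left 12. Merging raised the median widest peak from 2372.5 to 3958 bp, and a TSS window of 500 bp, under which Klf1 had no TSS peak and 9 members remained, gave 2443 bp. The median share of the gene under peaks was 16.5%, and became 14.1% with peaks of at least 500 bp, 19.3% after merging and 16.3% with RefSeq gene spans. Extending the enhancer window to 200 kb raised 65 enhancers to 129, while 50 kb gave 44. TATAAA rose from 0 to 3 of 8 promoters when 500 bases on either side of the GENCODE start were searched. A wider window holds more matches, and the share of all promoters was not counted for it. The other 30 of 39 group values stayed within 1.5 times for counts or unchanged to 3 digits for medians. In 2 alternatives chosen after seeing the data, a separate upstream peak was found at 7 members with gaps up to 1000 bp and at 6 with upstream peaks of at least 300 bp. Under these 2 settings the share over all genes with a TSS peak was not counted. Of the values for single genes, 47 of 169 moved. For enhancer counts this means by more than 1.5 times or to 0, and for widths and shares within the first 3 digits. The lists used here hold no counts, so no limit from depth was computed.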
